A study of Homo sapiens with 16 samples.

Results

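Nuclear-encoded subunits of the mitochondrial respiratory chain and of ATP synthase were described in RNA-seq profiles of U2OS, a cell line established from a human osteosarcoma. Members were the genes whose symbols begin with the roots NDUFA, NDUFB, NDUFC, NDUFS or NDUFV directly followed by a digit. The roots COX4 to COX8, UQCR and ATP5 also counted, as did the symbols SDHA, SDHB, SDHC and SDHD. Symbols with a hyphen and pseudogenes were left out, and a mean of at least 1 FPKM (fragments per kilobase of transcript, scaled by the number of mapped fragments) over all 16 libraries was required. Of 25270 genes measured, 92 matched a symbol root and 78 were members. The members were chosen by their mean FPKM, so their levels are given as a description, with no test. Cells received 1 of 3 compounds or the solvent DMSO for 6 h. The DMSO control was 1 library, and CPT, T4 and T5 were each given at 0.5, 2, 5, 10 and 20 µM, with 1 library at each dose. CPT is the usual abbreviation of camptothecin, a topoisomerase I poison, which the labels do not spell out. T4 and T5 are code names, and the series text presents them as modulators of alternative polyadenylation, by which transcripts of a gene receive different ends.

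The respiratory chain passes electrons from NADH and succinate to oxygen through complexes I to IV in the inner mitochondrial membrane, and ATP synthase, also called complex V, uses the resulting proton gradient to make ATP. Most subunits are encoded in the nucleus and imported, while a small core of complexes I, III, IV and V is encoded by mitochondrial DNA and complex II is wholly nuclear. The promoters of many of these genes are known to carry sites for the factors NRF1, NRF2/GABPA (of the ETS family) and YY1.

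The members comprised 36 genes of complex I, 4 of complex II, 9 of complex III, 12 assigned to complex IV and 15 of complex V. The other 2, ATP5S and ATP5SL, match by symbol but are not subunits: ATP5S encodes a coupling factor, and ATP5SL (now DMAC2) is known as an assembly factor of complex I. Among the 12, NDUFA4 is counted with complex IV, as its protein is now assigned there, and COX7A2L encodes a supercomplex factor. NDUFAB1 and CYC1, which also encode subunits, are not matched by the symbol roots and genes of mitochondrial DNA are not analysed here. Just inside the limit of 1 FPKM were UQCRHL at a mean of 2.03 FPKM, ATP5S at 3.62 and NDUFA5 at 4.75. Just outside were COX6B2 at 0.193 FPKM and NDUFA4L2 at 0.169, followed by ATP5L2, COX7A1, COX6A2, COX8C, COX7B2 and COX4I2, the last of which was listed at 0 in all 16 libraries. COX6A2 and COX7A1 are the subunit forms of heart and skeletal muscle.

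The cell line's labels were set against marker genes. Of 10 osteoblast and mesenchymal markers, 6 were at 1 FPKM or more in DMSO and 2 were at 0, and their summed level was 893 FPKM in DMSO and 893 to 1538 FPKM over all libraries. Nearly all of the DMSO sum came from VIM at 358, COL1A1 at 301 and SPARC at 227 FPKM. RUNX2, ALPL and SPP1 stood at 2.86, 2.54 and 1.71 FPKM in DMSO and COL1A2 at 0.051. The osteoblast markers SP7 and IBSP were at 0 in DMSO, and BGLAP was at most 0.0756 FPKM in any library. Of 5 blood markers, 0 reached 1 FPKM in DMSO and 3 were at 0. Blood, epithelial and striated muscle markers summed to at most 0.125, 4.52 and 4.90 FPKM in any library. The summed FPKM of all genes was 238669 to 285143 per library, lowest in DMSO and highest at 5 µM T5. Total depth is unknown, and treated libraries were estimated, from the spacing of their lowest values, at 0.639 to 0.997 of the DMSO depth.

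The letters upstream of the start sites are shown for SDHA and UQCRFS1, the subunit genes that fell, and for 3 genes that rose, because the known factor sites lie in this window. All 3 hold a match, while NDUFS8 and NDUFV1, which rose as well, hold no NRF1, ETS or YY1 letters. The printed lines come from chosen genes and were cut to hold a match, so they cannot show whether letters and change are linked. Promoter windows were taken from RefSeq on GRCh38.p14, from 250 bases before to 50 bases after the start, and 64 of the 78 members matched by symbol. Capitals mark matches, on either strand, to NRF1 letters (GCGCA and GCGC, separated by any base) in the first 3 lines and to ETS letters (CCGGAAG) in the others. The SDHA line gives 180 bases at chr5:218140-218319 on the + strand, and the others give 40 bases each around a match.
SDHA: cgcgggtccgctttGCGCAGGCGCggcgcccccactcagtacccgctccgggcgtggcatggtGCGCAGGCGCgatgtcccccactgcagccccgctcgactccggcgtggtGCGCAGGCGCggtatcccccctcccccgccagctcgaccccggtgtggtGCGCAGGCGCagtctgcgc
UQCRFS1: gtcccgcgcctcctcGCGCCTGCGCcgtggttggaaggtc
NDUFA11: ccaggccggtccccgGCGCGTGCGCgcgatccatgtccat
NDUFA13: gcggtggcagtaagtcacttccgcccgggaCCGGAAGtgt
COX5B: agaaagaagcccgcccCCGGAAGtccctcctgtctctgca
The UQCRFS1 window lies at chr19:29213158-29213197 on the - strand, that of NDUFA11 at chr19:5903864-5903903 on the - strand, that of NDUFA13 at chr19:19516185-19516224 on the + strand and that of COX5B at chr2:97646009-97646048 on the + strand. SDHA held 4 matches to the NRF1 letters, spaced 49 bases apart, while UQCRFS1 and NDUFA11 held 1 each upstream of the start.

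Levels in DMSO, which FPKM scales by transcript length, ran from 1.198 FPKM for UQCRHL to 318 FPKM for ATP5E, the epsilon subunit of ATP synthase. The median member stood at 53.0 FPKM, against 8.70 FPKM for the 10600 genes with a mean of at least 1 FPKM. COX7C, a small complex IV subunit, followed ATP5E at 224 FPKM, and ATP5O, a stalk subunit, was the third at 182 FPKM. ATP5O and ATP5B at 180 FPKM, and their next neighbour COX7B at 178 FPKM, differ by so little that the order of these 3 rests on the single DMSO library. The median DMSO level was 119 FPKM for complex V, 116 FPKM for complex IV, 43.9 FPKM for complex I, 43.0 FPKM for complex II and 32.9 FPKM for complex III. Complex V ranged from 20.3 to 318 FPKM and complex I from 3.81 to 155 FPKM, so the complexes overlapped widely.

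Most members made up a larger share of the measured mRNA as the dose of each compound went up. The 78 genes together held 2.34% of all FPKM in DMSO, and 2.65%, 3.01%, 3.01%, 3.12% and 3.03% from 0.5 to 20 µM CPT. With T4 they held 2.35%, 2.56%, 2.85%, 3.03% and 3.02%, and with T5 2.49%, 2.80%, 2.85%, 2.93% and 2.92%. Every treated library was above DMSO, the 0.5 µM T4 library only just, and the share levelled off at 2 µM with CPT and later with T4 and T5. From 0.5 to 20 µM CPT 65, 72, 71, 72 and 72 of the 78 members were above DMSO, against 51.5%, 48.5%, 44.7%, 43.5% and 43.4% of all 10600 genes. With T4 45, 63, 68, 70 and 69 were above it, against 47.1%, 37.7%, 34.1%, 37.9% and 37.7%. With T5 56, 66, 68, 68 and 71 were above it, against 39.2%, 34.9%, 33.5%, 35.9% and 38.1%. These counts rest on the deposited FPKM, whose sum was lowest in DMSO at 238669. At 20 µM the sum was 284473, 249266 and 278940 with CPT, T4 and T5. That offset is contained in every ratio to DMSO and every trend on the deposited scale. FPKM is relative to the library, so fewer cells and less RNA per cell cannot be told apart, nor can a share that rises because other mRNAs fall be told from more mRNA of the gene.

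**Figure D1:**
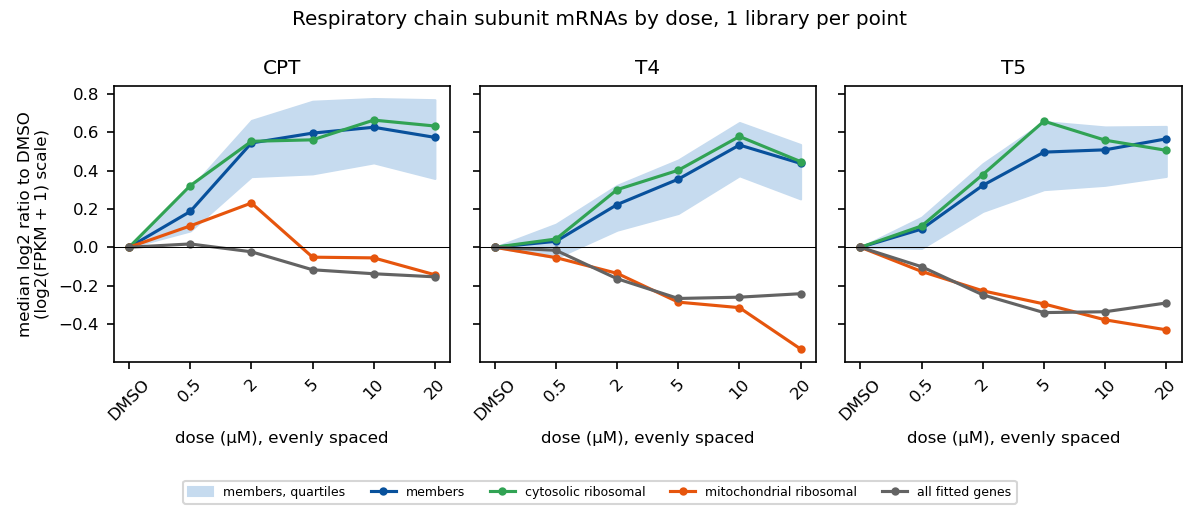
Median log2 ratio to DMSO on the log2(FPKM + 1) scale (vertical axis) at each dose in µM (horizontal axis, evenly spaced), with 1 library per point, for the 78 members (dark blue, with their quartiles shaded), 82 cytosolic and 76 mitochondrial ribosomal protein genes and all 10600 fitted genes. At 20 µM the member medians were 0.57 with CPT, 0.44 with T4 and 0.57 with T5, while the medians of all genes were -0.15, -0.24 and -0.29.

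A straight line was fitted with limma to log2(FPKM + 1) of DMSO and the 5 libraries of a compound, on log2(1 + dose / 0.5 µM), and its slope is given as the fitted log2 change from 0 to 20 µM with its standard error. Below, the values of a gene are FPKM at 0.5, 2, 5, 10 and 20 µM in this order, and its trends are log2 changes. A gene is said to have risen or fallen where the 2-sided p, adjusted by Benjamini-Hochberg over 10600 genes, was under 0.05. The 3 trends share the DMSO library. With CPT 54 of 78 members rose and 1 fell, while 17.9% of all genes rose and 25.8% fell, and the median change of members was 0.63 against -0.14 for all genes. With T4 53 rose and 3 fell, against 14.5% and 32.4% of all genes, and the medians were 0.56 and -0.27. With T5 57 rose and 3 fell, against 18.2% and 34.5%, and the medians were 0.62 and -0.29. The median log2 level of the fitted genes lay below that of DMSO by 0.08 to 0.41 in CPT libraries, 0.05 to 0.57 in T4 libraries and 0.18 to 0.63 in T5 libraries, so the size of these changes depends on the scaling. With each library centred on that median, 69, 73 and 74 members rose with CPT, T4 and T5 and 0, 0 and 2 fell, with member medians of 1.08, 1.20 and 1.29. On that scale 3572, 4293 and 4388 of all 10600 genes rose and 1643, 1847 and 1992 fell. With CPT and T4 centred in this way, 0 members were lower in limma even at an unadjusted p under 0.05. With quantile normalization 28, 41 and 39 members rose and 3, 3 and 5 fell, with medians of 0.34, 0.29 and 0.30. Of all 10600 genes 2341, 2806 and 3013 then rose and 1910, 2101 and 2344 fell. Of the members that rose on the deposited scale, 27 of 54, 36 of 53 and 36 of 57 rose under both other scalings too. The CPT calls rest on the 10 µM library: without it limma called 0 members (50 were higher and 1 lower at an unadjusted p under 0.05) and only 1 of 10600 genes in all, although the member median was still 0.60. Without the CPT library of 0.5 µM 22 members rose and without that of 5 µM 33 rose. Without the T4 library of 0.5 µM 35 rose. Without DMSO 14, 45 and 52 members rose with CPT, T4 and T5, beside 1629, 1806 and 2622 of 10600 genes. The CPT count of 14 of 78 then lies near the share of all genes.

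**Figure D2:**
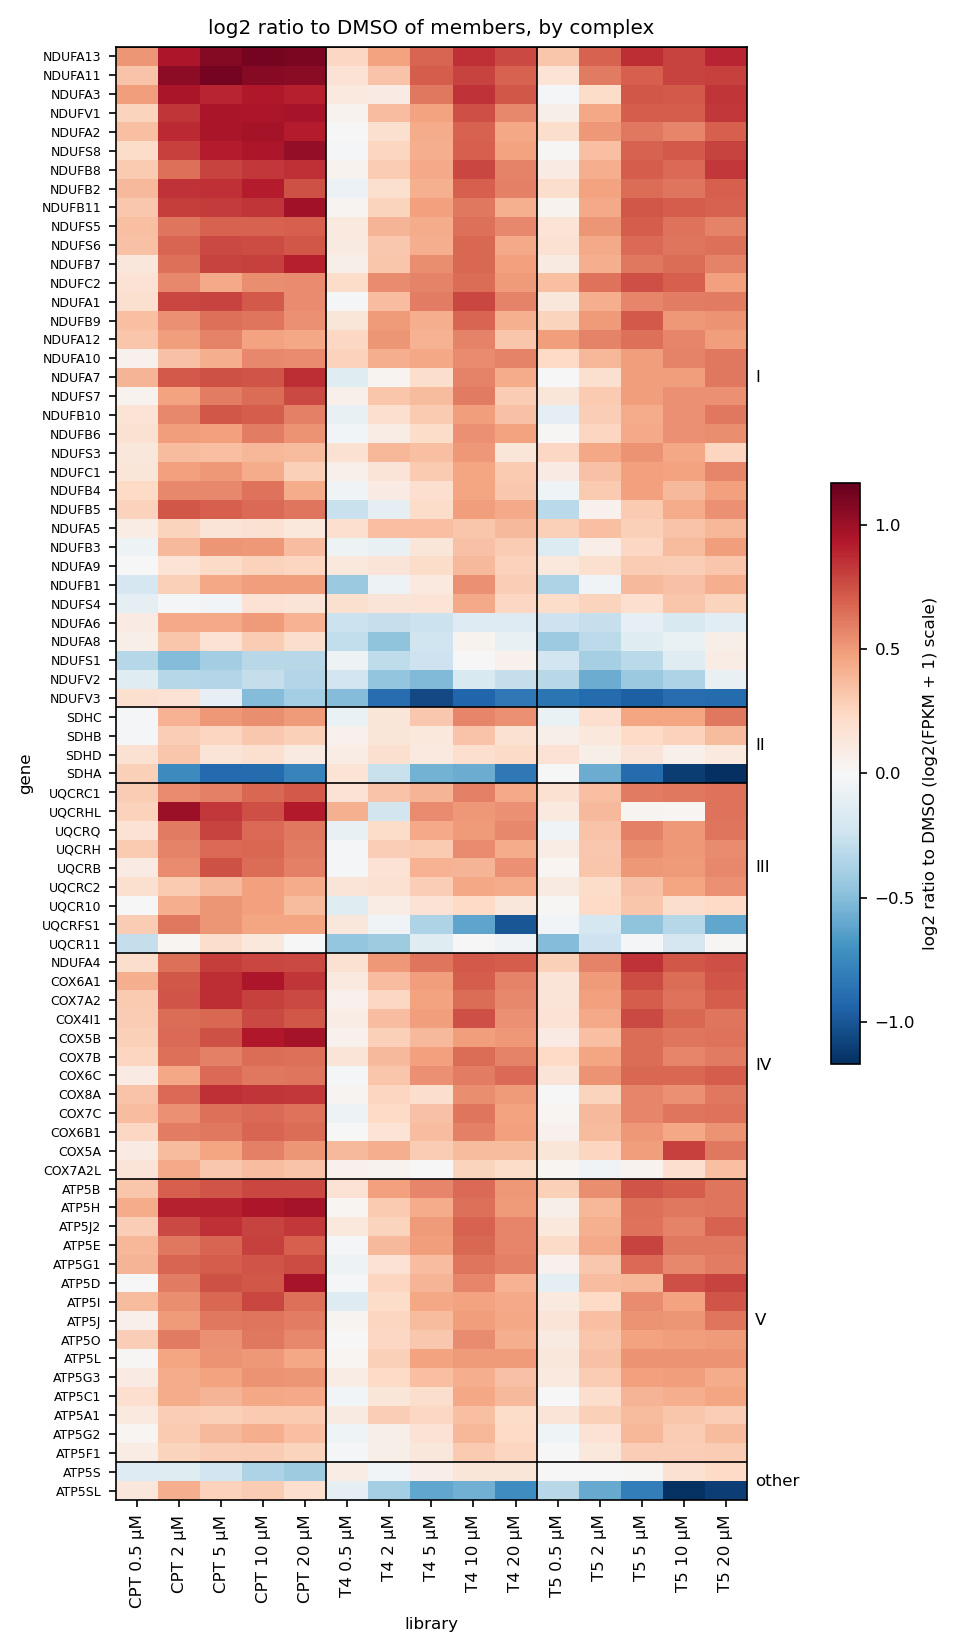
Log2 ratio to DMSO on the log2(FPKM + 1) scale (colour) for 77 of the 78 members (rows, by complex and then by their mean ratio) in each of the 15 treated libraries (columns). Red rows dominate complexes I, III, IV and V, and the darkest blue cells are those of SDHA, UQCRFS1, NDUFV3 and ATP5SL.

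Complex I, the NADH dehydrogenase that feeds electrons from NADH into the chain, rose in 24 of 36 members with CPT, 23 with T4 and 25 with T5. No complex I member fell in any trend (0 with limma, and 2, 1 and 0 lower at an unadjusted p under 0.05), and quantile normalization called 13, 21 and 21 risen and 1, 0 and 0 fallen. With median centring 31, 34 and 35 rose. Of its members, 7 are core subunits, which carry the redox centres and the ubiquinone site, and 29 are accessory subunits around them. Core subunits rose in 4, 2 and 3 of 7 with CPT, T4 and T5, with median changes of 0.37, 0.25 and 0.29. Accessory subunits rose in 20, 21 and 22 of 29, with medians of 0.63, 0.58 and 0.66. These counts describe the genes and no test of the difference between the groups was made.

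Among core subunits, NDUFV1 holds the flavin at which NADH is oxidised. It stood at 32.1 FPKM in DMSO, at 38.7, 58.0, 63.2, 62.8 and 63.5 with CPT, at 33.1, 41.6, 44.8, 54.8 and 47.9 with T4 and at 33.8, 44.3, 53.1, 53.0 and 57.7 with T5. Every treated library was above DMSO, and the trends were 1.0 ± 0.20 (adjusted p = 0.014), 0.72 ± 0.14 (adjusted p = 0.00799) and 0.90 ± 0.12 (adjusted p = 0.00208) with CPT, T4 and T5. NDUFS8, an iron-sulfur subunit near the ubiquinone site, stood at 70.1 FPKM in DMSO, at 81.6, 123, 133, 136 and 144 with CPT, at 69.5, 83.5, 94.3, 115 and 97.7 with T4 and at 70.7, 89.8, 113, 116 and 122 with T5. Its trends were 1.07 ± 0.17, 0.67 ± 0.15 and 0.91 ± 0.12, all called, and the 0.5 µM T4 library alone was below DMSO. NDUFS7, its neighbour in the chain of clusters, stood at 27.6 FPKM in DMSO, at 28.4, 38.6, 42.3, 43.9 and 47.8 with CPT, at 28.7, 34.7, 35.9, 42.5 and 34.2 with T4 and at 30.4, 34.2, 39.1, 40.5 and 40.5 with T5. It rose with CPT (0.83 ± 0.13) and T5 (0.58 ± 0.098), while the T4 trend of 0.46 ± 0.16 had an adjusted p of 0.0564 with limma.

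NDUFS1, NDUFV2 and NDUFS3, also of the core, were flatter. NDUFS1, the large subunit with several iron-sulfur clusters, stood at 26.0 FPKM in DMSO, at 20.4, 18.0, 19.4, 20.6 and 20.6 with CPT, at 24.9, 21.0, 21.8, 25.8 and 27.0 with T4 and at 22.1, 19.7, 20.7, 23.5 and 27.7 with T5. All 5 CPT libraries were below DMSO and the 20 µM libraries of T4 and T5 were above it, with no trend called (-0.21 ± 0.19, 0.047 ± 0.18 and 0.085 ± 0.21), though median centring called those of T4 (0.69) and T5 (0.76) risen. NDUFV2, an iron-sulfur partner of NDUFV1, stood at 95.1 FPKM in DMSO, at 86.1, 75.2, 74.7, 78.1 and 74.9 with CPT, at 81.4, 69.0, 66.2, 83.7 and 78.4 with T4 and at 75.9, 63.1, 70.3, 73.7 and 89.5 with T5. Every treated library was below DMSO, yet no trend was called (-0.31 ± 0.12, -0.20 ± 0.19 and -0.079 ± 0.24). Quantile normalization called NDUFV2 fallen with CPT, while with median centring the values turned to 0.14, 0.44 and 0.59. NDUFS3 stood at 60.0 FPKM in DMSO, at 65.9, 77.9, 76.9, 79.0 and 77.6 with CPT, at 68.1, 79.0, 76.6, 86.0 and 66.5 with T4 and at 71.0, 82.6, 86.6, 82.4 and 71.7 with T5. All its treated libraries were above DMSO, and it rose with CPT (0.37 ± 0.12, adjusted p = 0.0456) but was not called with T4 (0.25 ± 0.18) or T5 (0.29 ± 0.18), the last 2 of which were called risen with median centring and changed sign with quantile normalization, where the CPT call was lost too.

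Large rises were also seen in accessory subunits. NDUFA11, a membrane subunit at the junction of the arm, stood at 44.6 FPKM in DMSO, at 56.3, 93.0, 97.8, 94.2 and 93.4 with CPT, at 50.1, 56.4, 73.2, 77.98 and 72.5 with T4 and at 49.9, 68.5, 72.9, 77.8 and 78.2 with T5. It rose by 1.09 ± 0.26, 0.81 ± 0.14 and 0.85 ± 0.14 with CPT, T4 and T5. NDUFA13, also known as GRIM-19, stood at 79.9 FPKM in DMSO, at 115, 155, 169, 175 and 173 with CPT, at 94.8, 111, 129, 145 and 137 with T4 and at 101, 129.5, 146, 139 and 149 with T5. It rose by 1.07 ± 0.22, 0.84 ± 0.12 and 0.86 ± 0.16. For both genes all 15 treated libraries were above DMSO, and all their trends were called under both other scalings. The CPT call of NDUFA11 was lost without the 0.5 µM library as well as without the 10 µM library. NDUFA3, a small membrane subunit, stood at 46.3 FPKM in DMSO, at 65.5, 90.6, 86.8, 89.6 and 87.7 with CPT, at 50.2, 49.6, 71.6, 84.1 and 77.4 with T4 and at 45.7, 53.7, 77.4, 76.9 and 83.1 with T5, with rises of 0.84 ± 0.24, 0.89 ± 0.17 and 0.98 ± 0.15. Its CPT rise was not called with quantile normalization (0.52, limma adjusted p = 0.0999) and was kept in 2 of the 5 fits that left out 1 CPT library. NDUFB8, of the distal membrane arm, stood at 64.6 FPKM in DMSO, at 79.9, 102, 112, 115 and 117 with CPT, at 66.4, 79.6, 88.3, 112 and 97.1 with T4 and at 69.1, 86.9, 106, 103 and 115 with T5, with rises of 0.85 ± 0.15, 0.75 ± 0.14 and 0.87 ± 0.11. In NDUFA3 only the 0.5 µM T5 library was below DMSO, and in NDUFB8 none was. NDUFB11, also of the membrane arm, stood at 32.3 FPKM in DMSO, at 40.5, 57.04, 57.7, 58.2 and 64.7 with CPT, at 33.0, 38.9, 45.4, 49.9 and 43.4 with T4 and at 33.3, 44.1, 54.1, 53.4 and 52.6 with T5. It was above DMSO in all treated libraries and rose by 0.92 ± 0.18, 0.58 ± 0.14 and 0.82 ± 0.15.

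On the deposited scale several accessory subunits were not called with every compound, and NDUFV3, NDUFA6 and NDUFS4 are given here. NDUFV3, a small subunit beside NDUFV1, stood at 7.93 FPKM in DMSO, at 9.17, 9.07, 7.33, 5.28 and 5.79 with CPT, at 5.27, 3.82, 3.29, 3.70 and 4.00 with T4 and at 3.93, 3.79, 3.595, 3.80 and 3.78 with T5. All T4 and T5 libraries were below DMSO, those of 0.5 µM included, and no trend was called (-0.60 ± 0.24, -0.81 ± 0.30 and -0.67 ± 0.32). NDUFA6, which binds the acyl carrier protein, stood at 29.1 FPKM in DMSO, at 31.2, 39.99, 39.97, 41.5 and 39.0 with CPT, at 24.4, 24.0, 24.4, 26.2 and 26.2 with T4 and at 24.4, 24.0, 27.3, 25.6 and 26.7 with T5. It rose with CPT (0.47 ± 0.15, adjusted p = 0.0452), a call lost in 3 of the 5 fits that left out 1 CPT library, and was below DMSO in all T4 and T5 libraries with trends of -0.064 ± 0.14 and -0.032 ± 0.14, neither called. Relative to the library median these were called rises of 0.58 (limma, adjusted p = 0.016) and 0.64 (adjusted p = 0.01), and with quantile normalization no NDUFA6 trend was called (0.38, 0.030 and 0.011). NDUFS4, whose loss is a known cause of Leigh syndrome, stood at 97.6 FPKM in DMSO, at 90.3, 96.9, 95.3, 109.6 and 108 with CPT, at 111, 109, 109, 133 and 116 with T4 and at 113, 117, 112, 122 and 117 with T5. No NDUFS4 trend was called on this scale (0.21, 0.28 and 0.22), while all 3 were called risen with median centring (0.66, 0.92 and 0.89) and turned sign, uncalled, with quantile normalization (-0.21, -0.029 and -0.18).

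**Figure D3:**
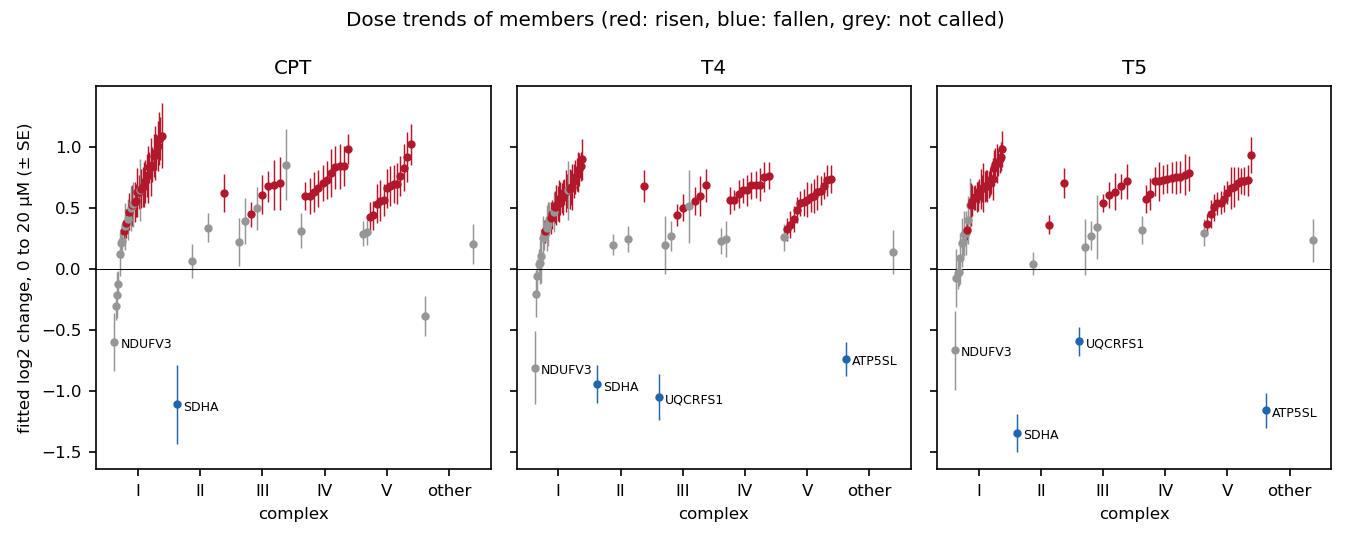
Fitted log2 change from 0 to 20 µM with its standard error (vertical axis) for each member, grouped by complex (horizontal axis) and sorted within it, for CPT, T4 and T5; red points rose, blue points fell and grey points were not called by limma at an adjusted p under 0.05. SDHA is blue for all 3 compounds, at -1.11, -0.95 and -1.35, and UQCRFS1 and ATP5SL are blue for T4 and T5.

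Complex II, succinate dehydrogenase, joins the citric acid cycle to the chain, and its 4 genes moved apart. SDHA encodes the flavoprotein that oxidises succinate, and stood at 32.1 FPKM in DMSO, at 39.2, 18.8, 16.6, 16.7 and 18.3 with CPT, at 35.9, 26.6, 21.5, 21.1 and 17.6 with T4 and at 32.0, 21.1, 16.8, 14.3 and 13.7 with T5. The 0.5 µM libraries of CPT and T4 were above DMSO and that of T5 near it, and every library from 2 µM on was below. SDHA fell, with trends of -1.11 ± 0.32 (adjusted p = 0.0346), -0.95 ± 0.15 (adjusted p = 0.00421) and -1.35 ± 0.15 (adjusted p = 0.00152) with CPT, T4 and T5. The fall was called under quantile normalization for all 3 compounds (-1.19, -0.89 and -1.21). With median centring it was -0.66 (adjusted p = 0.0893), -0.30 (adjusted p = 0.13) and -0.67 (adjusted p = 0.00773), called for T5 only. The CPT call was lost without the 0.5 µM library (adjusted p = 0.0682), without the 5 µM library (adjusted p = 0.0623) and without the 10 µM library (adjusted p = 0.0949), while the T4 and T5 calls held in all 5 fits that left out 1 library.

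SDHB, the iron-sulfur subunit that takes electrons from SDHA, stood at 53.9 FPKM in DMSO, at 53.4, 66.0, 64.2, 67.2 and 65.4 with CPT, at 56.0, 59.5, 59.0, 68.2 and 61.1 with T4 and at 56.4, 59.0, 63.3, 65.0 and 70.1 with T5. It rose with T5 (0.36 ± 0.077) and was not called with CPT (0.33 ± 0.12) or T4 (0.24 ± 0.11), while median centring called all 3 risen and quantile normalization none. SDHC, a membrane anchor at the ubiquinone site, stood at 19.9 FPKM in DMSO, at 19.6, 26.7, 28.7, 29.5 and 28.5 with CPT, at 18.8, 22.0, 25.04, 29.9 and 29.3 with T4 and at 18.8, 23.0, 27.7, 27.8 and 30.9 with T5. SDHC rose by 0.62 ± 0.16, 0.68 ± 0.13 and 0.70 ± 0.12, although all 3 of its 0.5 µM libraries were below DMSO. SDHD, the other anchor, stood at 74.0 FPKM in DMSO, at 83.8, 92.6, 82.2, 84.4 and 79.7 with CPT, at 78.4, 84.1, 80.3, 84.8 and 86.6 with T4 and at 83.5, 77.7, 82.2, 77.2 and 79.9 with T5. All treated libraries of SDHD were above DMSO and no trend was called (0.062, 0.20 and 0.042). Quantile normalization turned the signs (-0.33, -0.088 and -0.31) and called SDHD fallen with CPT and T5. Median centring, in contrast, called SDHD risen with T4 (0.84) and T5 (0.71). The ratio of SDHA to SDHB FPKM within a library was 0.595 in DMSO, 0.279 at 20 µM CPT, 0.287 at 20 µM T4 and 0.196 at 20 µM T5. At 0.5 µM it was 0.734, 0.641 and 0.567, so the 3 low doses lay on either side of DMSO. The summed FPKM of the 4 genes was 179.8 in DMSO and 180.7 to 204 in the treated libraries.

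SDHA has near-identical copies, among which fragments can be split, so its level is uncertain. SDHAP1, a pseudogene, stood at 2.11 FPKM in DMSO, at 2.86, 3.00, 2.51, 2.57 and 2.53 with CPT, at 2.67, 2.32, 1.77, 1.48 and 1.22 with T4 and at 2.58, 1.94, 1.502, 1.26 and 1.30 with T5. SDHAP2 stood at 2.40 FPKM in DMSO, at 3.31, 2.17, 1.73, 1.74 and 1.67 with CPT, at 3.54, 3.52, 2.70, 2.26 and 2.30 with T4 and at 3.86, 2.65, 2.11, 1.91 and 2.08 with T5. SDHAP3 was at most 0.294 FPKM in any library. At 20 µM of each compound neither copy had gained as much as 1 FPKM over DMSO.

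Complex III, the cytochrome bc1 complex, passes electrons from ubiquinol to cytochrome c. With each compound 5 of 9 members rose, and UQCRFS1 fell with T4 and T5. Quantile normalization called 3, 3 and 4 risen and 0, 1 and 1 fallen, and median centring called 8 risen with each compound. UQCRFS1 encodes the Rieske iron-sulfur protein, and stood at 52.1 FPKM in DMSO, at 64.4, 80.4, 74.8, 72.3 and 71.9 with CPT, at 57.4, 50.5, 40.4, 33.7 and 25.6 with T4 and at 50.8, 45.1, 37.3, 41.2 and 33.8 with T5. All CPT libraries were above DMSO, while T4 from 2 µM on and all T5 libraries were below it, so the CPT libraries did not overlap those of T4 or T5. The trends were 0.39 ± 0.19 (adjusted p = 0.132), -1.05 ± 0.19 (adjusted p = 0.00572) and -0.60 ± 0.12 (adjusted p = 0.00711), called for T4 and T5 also without any 1 library. With median centring they were 0.84, -0.40 and 0.075, neither of the latter 2 called, and with quantile normalization 0.078, -1.19 and -0.77, both called. UQCRC1, a core protein of the matrix side, stood at 82.1 FPKM in DMSO, at 101, 121, 124, 131 and 135 with CPT, at 92.7, 104, 109, 124 and 112 with T4 and at 92.9, 105, 125, 126 and 128 with T5. UQCRC1 was above DMSO in all treated libraries and rose by 0.67 ± 0.13, 0.50 ± 0.11 and 0.67 ± 0.10. The ratio of UQCRFS1 to UQCRC1 within a library was 0.634 in DMSO, 0.531 at 20 µM CPT, 0.228 at 20 µM T4 and 0.264 at 20 µM T5. UQCRHL is a near-identical copy of UQCRH, so fragments may be split between them. It ranged from 0.888 to 3.405 FPKM with no trend called, and UQCRH from 153 to 245 FPKM with rises of 0.61 ± 0.16, 0.55 ± 0.11 and 0.61 ± 0.11. With quantile normalization the UQCRH calls were lost for all 3 compounds and those of UQCRC1 for CPT and T4.

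**Figure D4:**
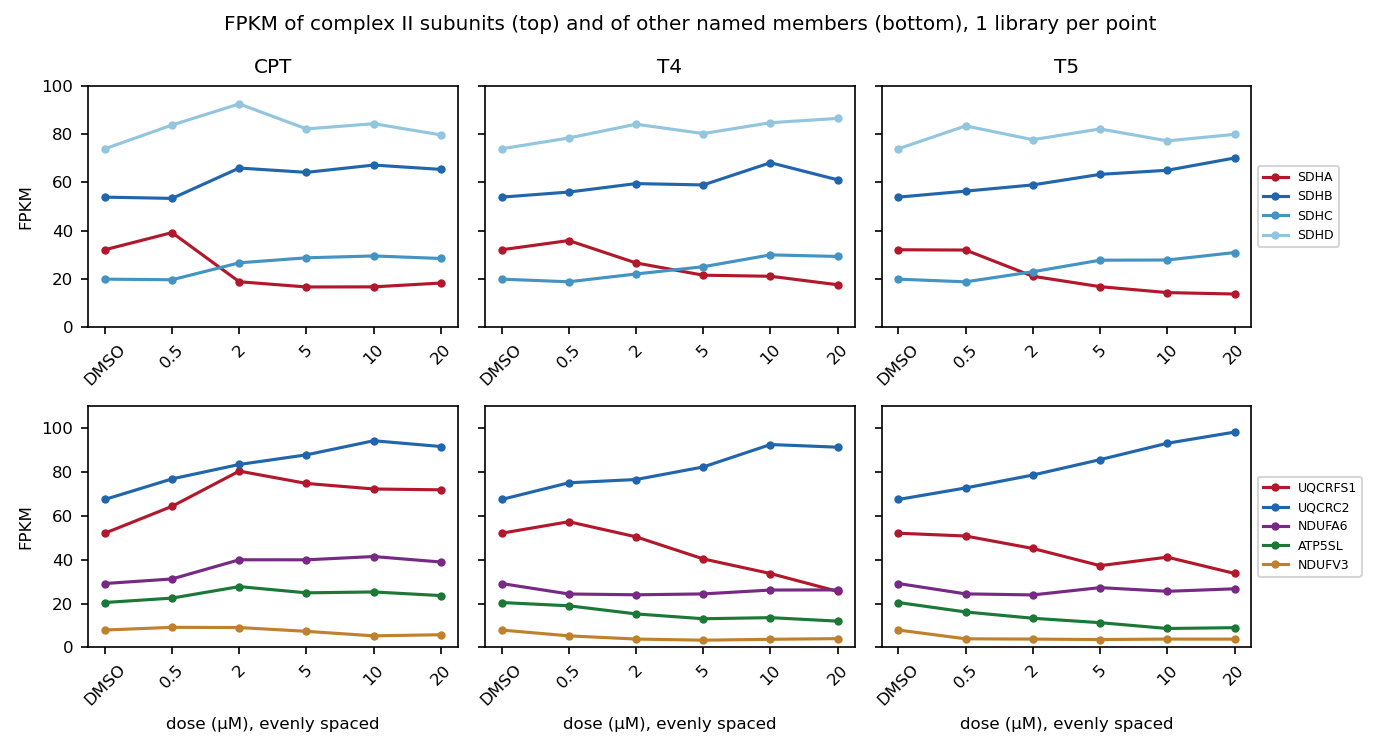
FPKM (vertical axis, from 0) by dose in µM (horizontal axis, evenly spaced) with 1 library per point, for the 4 complex II genes (top) and for UQCRFS1, UQCRC2, NDUFA6, ATP5SL and NDUFV3 (bottom), with CPT, T4 and T5. SDHA drops from 32.1 FPKM in DMSO to 18.3, 17.6 and 13.7 at 20 µM, and UQCRFS1 ends at 71.9 with CPT but at 25.6 and 33.8 with T4 and T5.

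Complex IV, cytochrome c oxidase, reduces oxygen, with nuclear subunits around a core made in the mitochondrion. In it 11 of 12 members rose with CPT, 10 with T4 and 11 with T5, with medians of 0.71, 0.64 and 0.73, and quantile normalization called 5, 8 and 6 and median centring all 12. None of the 12 fell (0 with limma in each trend, and 0 lower at an unadjusted p under 0.05). COX4I1, a subunit with a role in regulation by ATP, stood at 153 FPKM in DMSO, at 189, 241, 244, 261 and 254 with CPT, at 163, 197, 214, 259 and 223 with T4 and at 172, 208, 262, 243 and 237 with T5, with rises of 0.72 ± 0.16, 0.69 ± 0.14 and 0.72 ± 0.16. COX5B, a zinc-binding subunit, stood at 113 FPKM in DMSO, at 137, 179.6, 191, 217 and 223 with CPT, at 117, 137, 147, 159 and 161 with T4 and at 121, 145, 179, 176 and 177 with T5, with rises of 0.98 ± 0.12, 0.56 ± 0.084 and 0.73 ± 0.12. Both were above DMSO in all 15 treated libraries. COX7C, a small membrane subunit, stood at 224 FPKM in DMSO, at 288, 326, 349.9, 356 and 348 with CPT, at 215, 264, 285, 345 and 312 with T4 and at 228, 292, 334, 347 and 348 with T5, with rises of 0.60 ± 0.15, 0.64 ± 0.13 and 0.74 ± 0.12, and its 0.5 µM T4 library alone was below DMSO. None of the COX7C trends was called with quantile normalization (-0.020, 0.20 and 0.19), the CPT value being on the other side of 0, and its CPT call was kept in 2 of the 5 fits that left out 1 CPT library. COX4I1 lost the calls for CPT and T5 with quantile normalization. NDUFA4 stood at 27.8 FPKM in DMSO, at 32.2, 43.8, 49.5, 48.4 and 48.1 with CPT, at 31.5, 39.8, 43.2, 46.4 and 46.0 with T4 and at 34.0, 42.1, 50.8, 46.6 and 47.4 with T5, with rises of 0.83 ± 0.17, 0.75 ± 0.12 and 0.77 ± 0.17 and all treated libraries above DMSO. The member not called with any compound was COX7A2L, the supercomplex factor, at 0.31, 0.23 and 0.32, and COX5A was not called with T4 (0.24 ± 0.15). With median centring these 4 trends were called risen, and with quantile normalization they lay below 0.

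Complex V rose in 13 of 15 members with CPT and in 14 with T4 and with T5. None fell (0 with limma in each trend, and 0 lower at an unadjusted p under 0.05), and quantile normalization called 6, 7 and 6 risen and 0, 0 and 1 fallen, while median centring called all 15 risen. ATP5B encodes the catalytic beta subunit, and stood at 180.4 FPKM in DMSO, at 227, 293, 300.3, 311 and 311 with CPT, at 202, 252, 268, 285 and 257 with T4 and at 218, 263, 301, 295 and 279 with T5. It was above DMSO in all treated libraries, with rises of 0.76 ± 0.17, 0.59 ± 0.14 and 0.67 ± 0.16, none of which was called with quantile normalization. ATP5A1, the alpha subunit of the same ring, stood at 135 FPKM in DMSO, at 146, 165, 163, 166 and 166 with CPT, at 145, 164, 159, 172 and 156 with T4 and at 149.8, 164, 175, 169 and 164 with T5. All treated libraries of ATP5A1 were above DMSO as well, by less, and no trend was called (0.30 ± 0.10, 0.26 ± 0.11 and 0.29 ± 0.11). Median centring called all 3 risen. With quantile normalization the ATP5A1 values were below 0 (-0.16, -0.12 and -0.17), and that of T5 was called fallen.

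The c subunit of the membrane ring is made from 3 genes whose mature proteins are the same, and all 3 rose with each compound on the deposited scale. ATP5G1 stood at 131 FPKM in DMSO, at 172, 209.6, 214, 218 and 222 with CPT, at 125, 147, 167, 202 and 197 with T4 and at 135, 162, 207, 193 and 198 with T5. ATP5G2 stood at 137 FPKM in DMSO, at 139, 169.8, 179, 185 and 175 with CPT, at 133, 144, 154, 179.8 and 161 with T4 and at 133, 155, 180.1, 169.6 and 178 with T5. ATP5G3 stood at 31.9 FPKM in DMSO, at 34.1, 43.4, 44.6, 46.4 and 46.0 with CPT, at 33.9, 37.6, 40.9, 43.0 and 40.7 with T4 and at 34.6, 39.5, 44.99, 45.2 and 43.5 with T5. ATP5G1 moved the most, by 0.70 ± 0.17, 0.73 ± 0.12 and 0.70 ± 0.14, then ATP5G3 by 0.56 ± 0.13, 0.41 ± 0.11 and 0.50 ± 0.11, and ATP5G2 by 0.44 ± 0.12, 0.36 ± 0.11 and 0.45 ± 0.11. The changes of ATP5G2 turned to -0.023, -0.027 and -0.016 with quantile normalization. In the 5 fits that left out 1 library, ATP5G2 was called in 2, 1 and 4 with CPT, T4 and T5. ATP5G3 was called in 3, 3 and 4 of them and ATP5G1 in 3, 5 and 5. ATP5G1 and ATP5G2 differed little in level in DMSO, and ATP5G3 was lower.

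The 2 members that are not subunits did not rise on the deposited scale. ATP5SL stood at 20.5 FPKM in DMSO, at 22.5, 27.7, 24.9, 25.3 and 23.6 with CPT, at 19.0, 15.3, 13.1, 13.6 and 12.0 with T4 and at 16.2, 13.3, 11.3, 8.64 and 9.003 with T5. All CPT libraries were above DMSO and all T4 and T5 libraries below it, with no overlap between them. ATP5SL was not called with CPT (0.20 ± 0.17) and fell with T4 (-0.74 ± 0.14, adjusted p = 0.00631) and T5 (-1.16 ± 0.15, adjusted p = 0.00188), and in all fits without 1 library. With median centring the falls were -0.095, not called, and -0.49, called. ATP5S stood at 3.68 FPKM in DMSO, at 3.20, 3.23, 3.01, 2.65 and 2.50 with CPT, at 3.95, 3.57, 3.93, 4.17 and 4.16 with T4 and at 3.68, 3.70, 3.72, 4.30 and 4.48 with T5. All CPT libraries of ATP5S were below DMSO, with no trend called (-0.39 ± 0.17, 0.14 ± 0.18 and 0.23 ± 0.17). Both other scalings called ATP5S risen with T4 (0.78 and 0.88) and T5 (0.90 and 1.0).

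T4 and T5 were each set against CPT at the 5 matched doses, with dose as a block and without DMSO, as a mean log2 difference from limma. With T4 3 of 78 members were higher than with CPT and 48 lower, while 28.3% of all genes were higher and 36.9% lower, and the member median was -0.21. With T5 3 were higher and 36 lower, against 25.0% and 37.6%, with a median of -0.14. Median centring changed this: 4 were higher and 23 lower for T4, and 19 higher and 6 lower for T5, with medians of -0.13 and 0.05. Of all 10600 genes 3400 were then higher and 3008 lower for T4, and 3986 higher and 2521 lower for T5. The T4 count of lower members lies near the share of all genes, and the T5 count of higher members below it. Without the dose block 10 members were lower for T4 and 6 for T5, against 2328 and 2415 of 10600 genes. Both comparisons share the CPT libraries.

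The widest differences were in genes that lay below DMSO with T4 and T5. UQCRFS1 was lower than with CPT at 5 of 5 doses, with mean differences of -0.85 ± 0.17 (adjusted p = 0.00501) for T4 and -0.80 ± 0.11 (adjusted p = 0.000987) for T5. ATP5SL differed by -0.74 ± 0.11 (adjusted p = 0.00166) and -1.06 ± 0.14 (adjusted p = 0.00104), also at 5 of 5 doses. NDUFV3 differed by -0.71 ± 0.12 (adjusted p = 0.00267) and -0.77 ± 0.13 (adjusted p = 0.00224), and NDUFA6 by -0.59 ± 0.069 (adjusted p = 0.000762) and -0.56 ± 0.066 (adjusted p = 0.000655). These 4 genes kept their calls with median centring and quantile normalization and in all 5 fits that left out 1 dose. The 3 genes higher than with CPT, in both comparisons and under both other scalings, were NDUFS1 (0.27 ± 0.058 and 0.18 ± 0.064), NDUFS4 (0.21 ± 0.043 and 0.22 ± 0.044) and ATP5S (0.34 ± 0.094 and 0.35 ± 0.10). Each of them was higher at 5 of 5 doses. The NDUFS1 call for T5 was lost when any 1 dose was left out, and both ATP5S calls when 5, 10 or 20 µM was left out. Without the dose block the calls of NDUFS1 for T5 and NDUFS4 for T4 were lost.

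Fewer members were called between T5 and T4. With T5 6 of 78 members were higher than with T4 and 2 lower, against 6.05% and 26.5% of all genes, with a member median of 0.07. The 2 lower genes were SDHA (-0.34 ± 0.052, adjusted p = 0.00635) and ATP5SL (-0.32 ± 0.067, adjusted p = 0.0139), at 5 of 5 doses each, and both kept the call with median centring, quantile normalization and every dose left out. Both lost it without the dose block (limma, adjusted p = 0.971 each), and ATP5SL also with no filter on low values (adjusted p = 0.0504). NDUFB11 (0.16 ± 0.045), COX5B (0.13 ± 0.040) and COX7C (0.12 ± 0.039) were the higher members with the widest differences at 5 of 5 doses. The count of higher members was not stable: it was 57 with median centring and 3 with quantile normalization, and 0 to 12 with 1 dose left out. Of 10600 genes 2622 were higher with median centring and 1067 with quantile normalization. Of the rest, UQCRFS1 differed by 0.046 ± 0.094 (adjusted p = 0.726) and NDUFV3 by -0.059 ± 0.070 (adjusted p = 0.531), which does not show that the compounds act alike on them.

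Other genes of respiration were read in the same limma fits, on lists chosen with earlier results of these data known. Their counts stand beside the shares of all 10600 genes given above, of which 17.9%, 14.5% and 18.2% rose and 25.8%, 32.4% and 34.5% fell with CPT, T4 and T5. Of 53 assembly factors, which build the complexes without staying in them, 5, 6 and 9 rose and 9, 16 and 14 fell with CPT, T4 and T5, with medians of 0.04, -0.13 and -0.19 (0.49, 0.52 and 0.48 with median centring), which is near those shares, and nothing particular to them is read from the counts. COA7, an assembly factor of complex IV, stood at 12.3 FPKM in DMSO, at 16.9, 17.2, 10.98, 8.43 and 8.20 with CPT, at 12.1, 6.25, 3.47, 1.71 and 1.51 with T4 and at 10.0, 4.98, 2.46, 1.81 and 1.28 with T5. TACO1, a translational activator of mitochondrial COX1, stood at 9.03 FPKM in DMSO, at 9.70, 11.1, 7.88, 6.06 and 5.53 with CPT, at 7.07, 3.74, 2.02, 1.29 and 0.800 with T4 and at 5.65, 2.92, 1.41, 0.959 and 0.594 with T5. SDHAF2, which helps attach the flavin to SDHA, stood at 14.7 FPKM in DMSO, at 12.8, 8.86, 4.98, 3.82 and 3.47 with CPT, at 12.0, 6.99, 4.07, 3.47 and 3.28 with T4 and at 9.82, 4.43, 2.51, 2.10 and 1.75 with T5. COA7 and TACO1 fell with T4 (-2.76 ± 0.27 and -2.61 ± 0.19) and T5 (-2.75 ± 0.23 and -2.73 ± 0.21) and were not called with CPT, and were above DMSO at 0.5 and 2 µM CPT. SDHAF2 fell with all 3 compounds (-2.02 ± 0.21, -2.08 ± 0.24 and -2.65 ± 0.29), and all its treated libraries were below DMSO.

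Of 20 genes for mitochondrial biogenesis and for copying and reading mitochondrial DNA, 1, 0 and 0 rose and 9, 13 and 14 fell with CPT, T4 and T5 (0 were higher at an unadjusted p under 0.05 with T4 and with T5). Their medians were -0.82, -1.66 and -1.65, and still -0.37, -1.02 and -0.98 with median centring and -0.56, -0.99 and -0.96 with quantile normalization. TEFM, an elongation factor for mitochondrial transcription, stood at 7.42 FPKM in DMSO, at 4.98, 1.75, 1.31, 1.02 and 1.08 with CPT, at 5.48, 2.02, 0.761, 0.539 and 0.450 with T4 and at 3.38, 1.17, 0.686, 0.416 and 0.462 with T5. C10orf2, the mitochondrial DNA helicase Twinkle, stood at 9.22 FPKM in DMSO, at 17.9, 21.2, 18.1, 15.4 and 14.5 with CPT, at 9.68, 7.70, 3.92, 1.62 and 0.863 with T4 and at 9.41, 6.80, 3.92, 1.77 and 0.571 with T5. MTERF, a termination factor of mitochondrial transcription, stood at 5.96 FPKM in DMSO, at 8.30, 9.26, 4.82, 3.90 and 3.68 with CPT, at 5.42, 3.03, 1.61, 0.787 and 0.596 with T4 and at 4.06, 1.85, 0.773, 0.581 and 0.320 with T5. TEFM fell with all 3 compounds (-2.16 ± 0.36, -2.81 ± 0.30 and -2.55 ± 0.39). C10orf2 was above DMSO at every dose of CPT and fell with T4 (-2.67 ± 0.39) and T5 (-2.76 ± 0.39), and MTERF fell with T4 (-2.37 ± 0.21) and T5 (-2.52 ± 0.22), neither being called with CPT.

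Of 18 genes of electron carriers and ubiquinone synthesis, 3, 4 and 5 rose and 5, 5 and 4 fell, also near the shares of all genes. ETFB, a subunit of the electron transfer flavoprotein, stood at 19.5 FPKM in DMSO, at 23.4, 34.3, 37.5, 41.3 and 41.6 with CPT, at 17.5, 21.7, 28.0, 32.0 and 30.1 with T4 and at 17.3, 25.5, 32.2, 31.9 and 33.6 with T5, and rose with all 3 compounds (1.11 ± 0.17, 0.83 ± 0.17 and 0.95 ± 0.18). COQ10B fell with T4 (-1.23 ± 0.28) and T5 (-1.69 ± 0.28), and COQ9 was not called with any compound. Of 19 citric acid cycle genes, 6, 7 and 9 rose and 3, 3 and 4 fell. IDH3G and IDH3A, 2 subunits of 1 enzyme, went opposite ways: IDH3G rose by 1.46 ± 0.30, 0.71 ± 0.18 and 0.79 ± 0.12, and IDH3A fell (-1.45 ± 0.32, -0.98 ± 0.24 and -0.99 ± 0.30). Of 20 glycolysis genes, 13, 11 and 13 rose and 3, 2 and 2 fell, with medians of 0.66, 0.52 and 0.65 that dropped to 0.21, 0.15 and 0.13 with quantile normalization. SLC2A1, the glucose transporter, fell with all 3 compounds (-1.17 ± 0.23, -2.60 ± 0.26 and -2.49 ± 0.23).

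Ribosomal protein genes, another large group of constitutive mRNAs, are given for comparison. Of 82 cytosolic ones, 66, 68 and 64 rose and 2, 1 and 2 fell, with medians of 0.62, 0.56 and 0.59 beside 0.63, 0.56 and 0.62 for the members. With quantile normalization the cytosolic counts were 6, 20 and 15 risen and 7, 7 and 14 fallen with medians of 0.04, 0.10 and 0.02, beside 0.34, 0.29 and 0.30 for the members. Of 76 mitochondrial ribosomal protein genes, 15, 6 and 13 rose and 27, 33 and 32 fell, with medians of -0.13, -0.42 and -0.40, and their median centred values were 0.32, 0.22 and 0.27. No test compared these lists with the members.

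Gene spans of the members in the GENCODE annotation of GRCh38 ran from 1.47 kb for UQCRQ to 133 kb for NDUFA10, with a median of 12.6 kb. Across the 78 members Spearman's rho between span and fitted change was -0.58 for CPT, -0.41 for T4 and -0.46 for T5, as a description across genes that share the same libraries. Over 10455 fitted genes with a span it was -0.42, -0.12 and -0.20. Under 10 kb the 34 members had medians of 0.70, 0.63 and 0.69 with CPT, T4 and T5, against 0.47, 0.06 and 0.21 for 2110 genes. From 10 to 30 kb the 26 members had medians of 0.60, 0.54 and 0.60 against 0.06, -0.32 and -0.31 for 2992 genes. At 30 kb or more the 18 members had medians of 0.34, 0.33 and 0.38 against -0.55, -0.38 and -0.49 for 5353 genes. SDHA, which fell with all 3 compounds, spans 38.5 kb, while UQCRFS1 and ATP5SL, which fell with T4 and T5, span under 10 kb. NDUFA10, the member with the longest span, rose with all 3 compounds (0.63 ± 0.14, 0.53 ± 0.14 and 0.59 ± 0.12). The part of span in the calls was not tested.

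**Figure D5:**
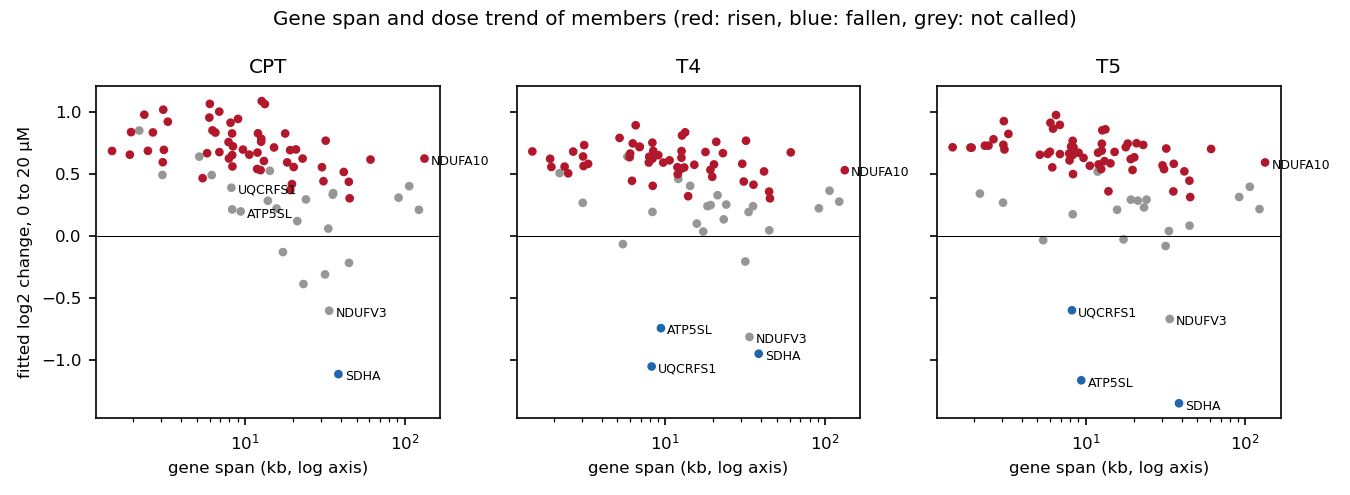
Fitted log2 change from 0 to 20 µM (vertical axis) against gene span in kb (horizontal axis, log scale) for each of the 78 members with CPT, T4 and T5; red points rose, blue points fell and grey points were not called. The points drift down to the right (rho = -0.58, -0.41 and -0.46), with SDHA low in all panels and UQCRFS1 and ATP5SL low with T4 and T5.

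The promoter letters shown above were counted over all windows, on both strands. The NRF1 letters were in 15 of 64 member promoters (23.4%), against 5.78% of all 35116 promoters and 12.7% of the 8515 promoters of fitted genes. The ETS letters CCGGAAG were in 29.7% of members, against 10.3% and 21.1%. The YY1 letters AAGATGGCG were in 12.5%, against 1.75% and 4.58%, and CCAAT, a general promoter element, was in 32.8%, against 34.6% and 36.7%. Some promoters hold more than 1 of these. The 15 members with NRF1 letters had median changes of 0.42, 0.37 and 0.40 with CPT, T4 and T5, with 7, 8 and 8 risen and 1, 2 and 2 fallen. The 49 without had 0.66, 0.58 and 0.66, with 36, 34 and 39 risen and 0, 1 and 1 fallen. SDHA and UQCRFS1, whose windows are printed above, are among the 15. With ETS letters 14, 14 and 15 of 19 members rose, beside 29, 28 and 32 of 45 without them. With YY1 letters 6, 4 and 6 of 8 rose, beside 37, 38 and 41 of 56 without them. A match to letters is not a bound site, and these counts were not tested.

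Exons of 24 members overlap those of a gene on the opposite strand and exons of 16 overlap another gene on the same strand in GENCODE, and no label says whether the libraries keep the strand, so fragments of overlapping genes cannot be told apart. The read-through transcript NDUFC2-KCTD14, excluded by its hyphen and named here after its values were seen, stood at 4.66 FPKM in DMSO, at 5.81, 6.76, 6.53, 5.42 and 4.42 with CPT, at 3.14, 1.65, 1.08, 0.623 and 0.241 with T4 and at 2.35, 1.77, 1.21, 0.689 and 0.362 with T5. NDUFC2 itself stood at 16.8 FPKM in DMSO, at 18.9, 25.3, 23.2, 24.9 and 25.1 with CPT, at 19.6, 25.1, 25.5, 26.9 and 24.2 with T4 and at 21.7, 26.7, 28.9, 27.9 and 23.8 with T5. The read-through row thus went down with T4 and T5 from 0.5 µM on, while NDUFC2 was above DMSO in every treated library.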

How the data were processed

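RNA of 16 U2OS libraries was measured as FPKM, in a single matrix that the authors deposited with 1 column for each library. The submitters' processing notes name Cufflinks, GSNAP, GRCh37 and hg19 without roles; their versions, settings and filters are not given here. After 2 inner header lines, 1 incomplete line and 220 identical repeats were left out, 25270 genes remained. Genes averaging at least 1 FPKM over the libraries (10600) were put on a log2(FPKM + 1) scale computed from the deposited FPKM, which understates changes of low genes. Trends and differences were fitted with limma 3.58.1 in R 4.3.3 with moderated variances, a mean-variance trend and Benjamini-Hochberg adjustment at 0.05 over all fitted genes. The fits were also run on simulated data with independent noise and few changed genes. In the real libraries many genes were called and shifts are shared between genes, so the simulation says nothing on the calls made here. Plots were drawn with matplotlib 3.10.9, and tables made with numpy 2.4.6 and pandas 2.3.3 in Python 3.11.15. No label ties libraries to separate cultures, and with 1 library per dose a p-value reflects how single libraries scatter about the line, which may be technical.

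The members, the lists and the tests were chosen with earlier results of these data known. Values in every library were given for the 5 rising and 5 falling members with the largest called change in each trend and the 3 higher and 3 lower in each matched comparison, with the same sign at all 5 doses, plus complex II, the core of complex I, the c subunit genes, ATP5A1, ATP5B, COX4I1 and UQCRC1, and the limit of the rule. Up to 3 genes of each other list, those with the largest change in any trend, were named. The values of 1 member are not reported here, though it stays in the counts. Alternatives were a pseudocount of 0.1, no filter or a mean of 5 FPKM, median centring, quantile normalization, other dose scales, no DMSO, no dose block and leaving out each library or dose.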

Additional observations from a re-analysis of the deposited data

Results flagged for a closer look

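For 3 members the level with T4 and T5 differed from that with CPT at the 5 matched doses by limma (comparisons that share the CPT libraries), while the dose trends against DMSO had opposite signs on the deposited scale, a difference in sign that this test does not address. UQCRFS1, the Rieske protein of complex III, was lower with T4 (-0.85 ± 0.17, adjusted p = 0.00501) and with T5 (-0.80 ± 0.11, adjusted p = 0.000987). ATP5SL was lower with T4 (-0.74 ± 0.11, adjusted p = 0.00166) and T5 (-1.06 ± 0.14, adjusted p = 0.00104). NDUFA6 was lower with T4 (-0.59 ± 0.069, adjusted p = 0.000762) and T5 (-0.56 ± 0.066, adjusted p = 0.000655). Each was lower at 5 of 5 doses in both comparisons, and relative to DMSO all 5 CPT libraries of these genes were higher. With median centring the differences were -0.76 and -0.61 for UQCRFS1, -0.66 and -0.87 for ATP5SL, and -0.50 and -0.37 for NDUFA6. The trend of CPT was not called for UQCRFS1 or ATP5SL, and those of T4 and T5 were not called for NDUFA6. The opposite signs depend on the scale: with median centring the NDUFA6 trends were 0.92, 0.58 and 0.64 with CPT, T4 and T5, all called risen, and that of UQCRFS1 with T5 was 0.075.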

How the results depend on the processing

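The number of rising members moved as follows. For CPT (54) it was 33 with no filter, 28 with quantile normalization, 0 on a linear dose scale (4 at an unadjusted p under 0.05), 14 without DMSO (beside 1629 of 10600 genes) and 0 to 61 with 1 library left out, lowest without the 10 µM library. For T4 (53) it was 0 on a linear dose scale and 35 to 53 with 1 library left out, and for T5 (57) 0 on a linear dose scale (30 and 27 at an unadjusted p under 0.05). The falling count for CPT (1) was 0 with no filter, median centring, linear dose and dose rank, 3 with quantile normalization and 0 to 1 with 1 library left out; at an unadjusted p under 0.05 in limma the counts of 0 were 4, 0, 0 and 2, and 1 without a library. For T4 (3) it was 0 with median centring (0 unadjusted), and for T5 (3) 5 with quantile normalization and 0 on a linear dose scale (3 unadjusted). At matched doses, T4 over CPT (3 higher, 48 lower) had 5 higher with quantile normalization, and 23 lower with median centring and 10 without the dose block. T5 over CPT (3 and 36) had 19 higher with median centring, 8 with quantile normalization and 1 to 2 with 1 dose left out, and 6 lower both with median centring and without the block. T5 over T4 (6 and 2) had 1 higher with no filter, 57 with median centring, 3 with quantile normalization, 0 without the block and 0 to 12 with 1 dose left out, and 1 lower with no filter and 0 without the block (0 in either direction unadjusted).

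The sign turned under quantile normalization, with CPT, T4 and T5, for ATP5A1 (-0.16, -0.12 and -0.17), ATP5G2 (-0.023, -0.027 and -0.016), COX7A2L (-0.083, -0.068 and -0.049), NDUFS4 (-0.21, -0.029 and -0.18) and SDHD (-0.33, -0.088 and -0.31). It also did for NDUFS3 with T4 (-0.012) and T5 (-0.042), NDUFA6 with T4 (0.030) and T5 (0.011), COX7C (-0.020) and ATP5S (0.16) with CPT, COX5A with T4 (-0.021), NDUFV3 with T5 (0.055) and NDUFV3 in T5 over T4 (0.050). It turned with median centring for NDUFS1 (0.24) and ATP5S (0.065) with CPT, NDUFV2 (0.14, 0.44 and 0.59), NDUFA6 with T4 (0.58) and T5 (0.64), UQCRFS1 (0.075) and NDUFV3 (0.0052) with T5 and NDUFV3 in T5 over T4 (0.043). Without DMSO it turned for NDUFS1 with CPT (0.10), NDUFV2 with T4 (0.055) and T5 (0.31), SDHD with CPT (-0.13) and T5 (-0.068), NDUFA6 with T4 (0.15) and T5 (0.17) and COX5A with T4 (-0.032), and on a linear dose scale for NDUFV2 with T5 (0.16), SDHD with CPT (-0.027) and NDUFA6 with T4 (0.021) and T5 (0.024). With 1 library left out NDUFS1 ranged from -0.11 to 0.083 with T4 and from -0.19 to 0.12 with T5, lowest without the 20 µM library. In T5 over T4, leaving out 1 dose gave -0.098 to 0.014 for NDUFV3 and -0.040 to 0.10 for UQCRFS1. In these cases the cause was not tested. Of 1591 alternatives for 126 single-gene values, 1273 kept direction and side of the threshold, 226 lost the call, 41 gained it and 51 turned sign.

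No paired analysis was possible because each condition has 1 library and the replicate numbers pair nothing, and the dose block was used in its place. Total depth is unknown, so no counting error is given.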
